A study of Homo sapiens with 16 samples.

Results

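The genes described here are the 5 NF-κB subunits and 5 of their inhibitors and feedback regulators, 10 listed genes of the 42364 gene identifiers found in the bulk and single-cell tables of kidney organoids together. They were taken from the list by identifier, and all 10 were found in each of the 3 bulk tables and in both single-cell matrices. The organoids were grown from the human embryonic stem cell line UM77-2, and no group carries a genetic change. In set 1 (1 library per day) and set 2 (2 libraries per day), untreated organoid spheroids were collected on days 21, 25 and 29. In the TNFα set, day 25 organoids had received 5 ng/ml TNFα or the vehicle control (VC) for 24 h or 48 h, with 1 bulk library for each of these 4 combinations. For single cells, whole wells of day 24 organoids that had received TNFα or VC for 24 h were dissociated, with 1 library each. A further untreated day 25 single-cell sample was not analysed here. Such organoids hold podocyte, tubule and stromal cells beside neuronal and muscle cells, all from 1 cell line, so the libraries of a group are not separate donors. The study describes independent experiments and biological replicates in general, and the labels do not say which of these libraries came from separate cultures. P-values therefore measure only the spread between these libraries, which the fits partly pool over genes and which may be technical in part.

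NF-κB transcription factors are dimers of RELA, RELB, REL and the processed forms of NFKB1 and NFKB2. Inhibitor proteins of the IκB family hold them in the cytoplasm until kinase complexes mark an inhibitor, or the NFKB2 precursor, for degradation or processing. Several inhibitors and some subunits are themselves textbook targets of NF-κB, so the pathway writes its own feedback, and TNFα is among its best known activators in kidney epithelium.

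Depth sets only the counting error of the values below. Library totals, recovered from the deposited values, were 25508651 to 29408687 reads in set 1, 19073609 to 30282025 in set 2 and 49948198 to 59246286 in the TNFα set. The members rested on at least 187 reads per library in set 1, 186 in set 2 and 286 in the TNFα set, so none was near the limit of detection. The immune marker list was low in bulk: of its 9 genes, 3 were in the TNFα table, where they summed to between 6.67 and 13.8 CPM (counts scaled to a common library total). Most of these reads were of AIF1 (707 in the VC library of 24 h). PTPRC, CD68, LYZ, TYROBP and CD3E were in no bulk table. The rule that removed genes from these tables is not stated, so this does not show that they had no reads. In the single-cell VC library described below, all 9 genes of the list had UMIs. There the list summed to 169 CPM in podocyte-like cells and 6.84 to 16.8 CPM in the other named classes. In the TNFα set the 13 podocyte markers summed to 8396 and 7970 CPM in the VC libraries and to 5145 and 3966 CPM in the TNFα libraries. The 14 proximal tubule markers summed to 1340 and 1347 CPM against 786 and 920 CPM, and the 12 stromal markers to 7204 and 8831 CPM against 9105 and 9448 CPM. The part of these marker shifts in the differences below was not tested, and in bulk samples fewer cells of a type cannot be told apart from less RNA per cell.

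The κB site is the short DNA element that NF-κB dimers bind, and members that are NF-κB targets are known for carrying it near their start. The RefSeq promoters (GRCh38.p14, 250 bases before to 50 after an annotated start) of 8 members were searched on both strands for the 10-base κB consensus, and RELB and NFKBIE had no entry. The sequences below show, for each of the 6 members with a match before an annotated start, the match closest to it, and for TNFAIP3 both, because the levels of these members are compared next. They run 5′ to 3′ on the strand of the gene, and capitals mark bases of a match. The longer stretches of NFKBIA (chr14:35404750-35404869, minus strand) and TNFAIP3 (chr6:137867139-137867213, plus strand) end before the first annotated exon, and the others are windows of 30 bases. The TNFAIP3 stretch holds 2 matches 67 and 55 bases before the start, and the NFKBIA match begins 81 bases before it.
NFKBIA: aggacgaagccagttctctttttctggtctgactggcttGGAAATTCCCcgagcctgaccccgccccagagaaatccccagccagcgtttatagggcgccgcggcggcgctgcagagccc
TNFAIP3: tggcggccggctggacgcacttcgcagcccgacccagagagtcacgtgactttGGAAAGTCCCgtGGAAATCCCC
NFKB1: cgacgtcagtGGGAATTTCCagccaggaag
NFKB2: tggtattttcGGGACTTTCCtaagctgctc
REL: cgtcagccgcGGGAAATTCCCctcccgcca
NFKBIB: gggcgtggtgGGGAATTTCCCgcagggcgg
The NFKB1 window (chr4:102501300-102501329) has its match 49 bases before the start, the NFKB2 window (chr10:102395674-102395703) 21 bases before one of its annotated starts, and the NFKBIB window (chr19:38899931-38899960) 28 bases before the start. The REL window (chr2:60881517-60881546), which lies within an annotated exon, has its match 47 bases before the RefSeq start. In REL and in NFKBIB 2 matches on opposite strands overlap, which gives the longer run of capitals. BCL3 held a match after its start, RELA held none in either of its 2 windows, and in all 8 of the 13 member promoters had at least 1. Of all 35116 promoters 11.3% did, and of the 27305 genes with a promoter 13.25% had a match in at least 1, as did 17.4% of the 13669 of these genes that are in the TNFα table, against 7 of these 8 members. These matches are a description of letters in a window, and binding was not measured in these libraries.

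All 10 members were higher in the TNFα libraries than in the VC libraries of the bulk TNFα set, and the order of size divided them. TNFAIP3, RELB, NFKBIA, NFKB2, BCL3 and NFKBIE rose by over 2 on the log2 scale, while NFKB1, REL and NFKBIB rose by under 1 and RELA by 0.25. The comparison asks how the organoids respond to a proinflammatory cytokine. A model with time and treatment was fitted by limma across the whole table, so the 2 times stand in for replicates, with calls made below an adjusted p of 0.05 (Benjamini-Hochberg over 21093 genes). All 10 members were called higher. Of all genes 8.42% were called higher and 19.3% were called in either direction, and the median log2 fold change was 2.08 over the members and -0.03 over all genes. All bulk values are log2(CPM + 1), a scale on which the changes of low genes are understated. Errors beside a log2 fold change are standard errors of that fit (4 libraries). In it the spread of a gene is the change of its TNFα difference between 24 h and 48 h. The fit draws this spread towards a value shared by genes of similar level. Errors and adjusted p-values therefore rest in large part on other genes. The BCL3 difference, for example, changed by -0.80 between the times, with an error of 0.13.

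**Figure D1:**
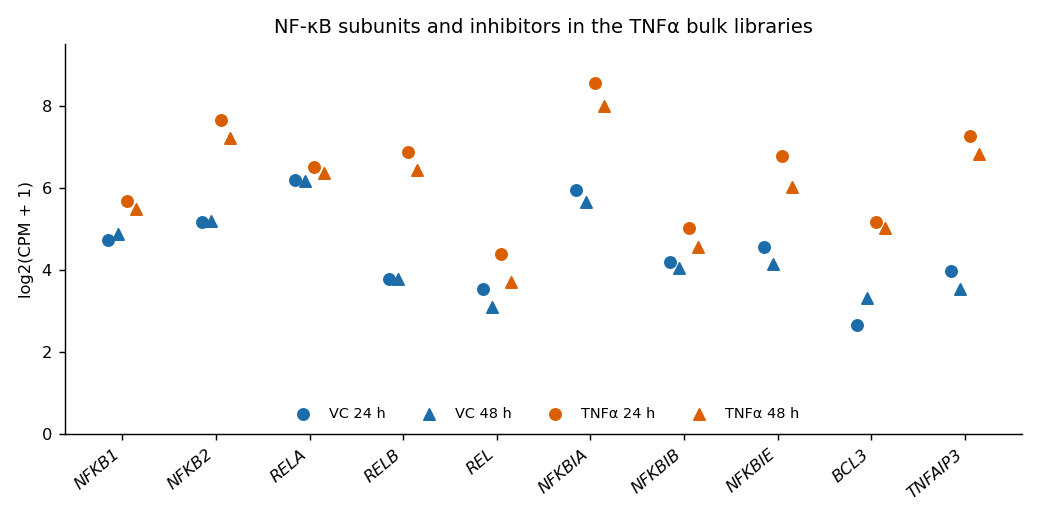
Level of each member in the 4 bulk libraries of the TNFα set, as log2(CPM + 1) (1 point per library; blue, VC; orange, TNFα; circles, 24 h; triangles, 48 h). Both orange points lie above both blue points for each member, with the narrowest separation in RELA.

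Among the subunits, RELB and NFKB2, the pair that forms the dimer of the non-canonical pathway, changed most. RELB read 3.78 in both VC libraries, and 6.87 and 6.42 in the TNFα libraries at 24 h and 48 h. The log2 fold change was 2.87 ± 0.09 (limma, adjusted p = 4.22e-13). NFKB2, the p100 precursor of p52, read 5.17 and 5.18 in the VC libraries and 7.66 and 7.21 in the TNFα libraries. The VC values were again close together, and the log2 fold change was 2.26 ± 0.09 (limma, adjusted p = 3.23e-12).

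NFKB1, the p105 precursor of p50, moved less. It read 4.74 and 4.87 with VC and 5.69 and 5.48 with TNFα, a log2 fold change of 0.78 ± 0.09 (limma, adjusted p = 3.02e-06). REL, the subunit best known from lymphocytes, read 3.52 and 3.10 with VC and 4.38 and 3.70 with TNFα. Its VC library at 24 h lay close below its TNFα library at 48 h, and its log2 fold change was 0.73 ± 0.10 (limma, adjusted p = 6.13e-05). In the annotation REL shares 33.3% of its exonic bases with another gene on the same strand, so its count is uncertain. RELA, the p65 subunit of the classical dimer, was almost level, with 6.19 and 6.16 with VC and 6.497 and 6.36 with TNFα. The fold was 1.19, or 0.25 ± 0.07 on the log2 scale (limma, adjusted p = 0.011). With treatment as the only term in the model, RELA (adjusted p = 0.153), REL (adjusted p = 0.156) and NFKBIB (adjusted p = 0.0587) were no longer called by limma, and without the mean-variance trend RELA was not called either (adjusted p = 0.0896). Leaving out 1 library at a time in the model with treatment alone, limma called between 7 and 9 members, and RELA was called in none of these 4 fits (adjusted p from 0.192 to 0.519). In the same fits the log2 fold change of REL was 0.39 without the TNFα library of 24 h (adjusted p = 0.527), 0.52 without the VC library of 48 h (0.466), 0.94 without the VC library of 24 h (0.155) and 1.07 without the TNFα library of 48 h (0.0494). NFKBIB had 0.45 without the TNFα library of 24 h (limma, adjusted p = 0.242) and was called only without the TNFα library of 48 h (0.90, adjusted p = 0.0237).

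Of the classical inhibitors, NFKBIA was the most abundant and rose most. NFKBIA encodes IκBα, the inhibitor that is degraded and resynthesised after each pulse of TNFα. It read 5.95 and 5.65 with VC and 8.54 and 7.998 with TNFα, which is 19509 and 15087 reads against 3294 and 2459. The log2 fold change was 2.47 ± 0.07 (limma, adjusted p = 4.62e-14). NFKBIE, which encodes IκBε, read 4.56 and 4.13 with VC and 6.77 and 6.02 with TNFα, a log2 fold change of 2.05 ± 0.08 (limma, adjusted p = 6.65e-12). Its lower TNFα library was still well above its higher VC library. NFKBIB, which encodes IκBβ, stood apart from both. It read 4.19 and 4.03 with VC and 5.01 and 4.56 with TNFα, a log2 fold change of 0.67 ± 0.09 (limma, adjusted p = 3.89e-05).

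BCL3 and TNFAIP3 are not cytoplasmic IκB proteins of the classical kind. BCL3 is a nuclear member of the IκB family that works as a cofactor of p50 and p52 dimers. It read 2.65 and 3.30 with VC and 5.16 and 5.01 with TNFα, with a log2 fold change of 2.11 ± 0.13 (limma, adjusted p = 3.42e-09). Its VC libraries were 0.65 apart, the widest gap between VC libraries of any member, and from 286 reads at 24 h it had the fewest reads. TNFAIP3 encodes A20, a ubiquitin-editing enzyme that shuts off signalling upstream of the kinases. It had the largest change of the members, from 3.97 and 3.53 with VC to 7.26 and 6.82 with TNFα, a log2 fold change of 3.29 ± 0.07 (limma, adjusted p = 4.00e-15).

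Because lengths differ, levels of different members were compared as CPM per kilobase of the canonical transcript. In the VC libraries NFKBIA stood first at 38.9 and 31.6 CPM per kilobase, and RELA followed at 28.7 and 28.0. NFKBIB was at 14.4 and 12.9, and NFKB2 at 11.6 and 11.7. NFKBIE at 9.66 and 7.06, NFKB1 at 6.33 and 6.98 and RELB at 5.63 in both came next, and the lower value of NFKBIE was close to the higher value of NFKB1. BCL3 at 2.81 and 4.72 and TNFAIP3 at 3.15 and 2.26 overlapped each other, and REL was lowest at 0.94 and 0.68. In the TNFα libraries NFKBIA remained first at 238 and 163 CPM per kilobase, and NFKB2 followed at 66.7 and 48.7. RELB at 51.2 and 37.4 overlapped NFKB2. RELB and NFKBIE, at 46.2 and 27.3, overlapped each other, and RELA at 35.5 and 32.3 lay within the range of NFKBIE. TNFAIP3 reached 32.6 and 24.1 and overlapped RELA and NFKBIE. Below them were NFKBIB at 26.2 and 18.9, which overlapped TNFAIP3, BCL3 at 18.5 and 16.6 and NFKB1 at 12.5 and 10.7. REL stayed last at 1.78 and 1.08. Its place rests in part on its long canonical transcript (11108 bases). As plain CPM it was above BCL3 in the VC library of 24 h (10.5 against 5.28) and lowest in the others. Over all cells of the single-cell VC library, where counts were not scaled to length, REL had 18.2 CPM. Only NFKBIA (72.8 CPM) and RELA (27.3 CPM) were higher there. From the VC to the TNFα libraries RELA went from the second to the fifth place by mean level per kilobase, while its fold was the smallest of the members.

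At single times there is 1 library for each condition, so the differences below have no test. A difference of at least 1 on the log2 scale was reached by 6 of 10 members at 24 h and by 6 of 10 at 48 h, in each case TNFAIP3, RELB, NFKBIA, NFKB2, NFKBIE and BCL3. Of all genes 1.28% were higher by that size at 24 h and 1.07% at 48 h. The difference was smaller at 48 h for 9 of 10 members, and the median change from 24 h to 48 h was -0.31. Of the 1776 genes called higher, 56.3% were smaller at 48 h, with a median change of -0.04. The fit takes this change as the spread of a gene, so genes with a small change were more readily called. Most of the target genes described further below also had a smaller difference at 48 h, so this was not particular to the members. BCL3 fell back most, from 2.51 to 1.71, and its VC library differed by 0.65 and its TNFα library by -0.14 between these times. RELB went from 3.09 to 2.64 and NFKB2 from 2.49 to 2.03, with VC libraries that hardly moved. TNFAIP3 was the exception, with 3.29 at 24 h and 3.30 at 48 h. Its VC library and its TNFα library at 48 h differed from those at 24 h by -0.44 and -0.43. The treatment-by-time term could not be tested with these 4 libraries.

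**Figure D2:**
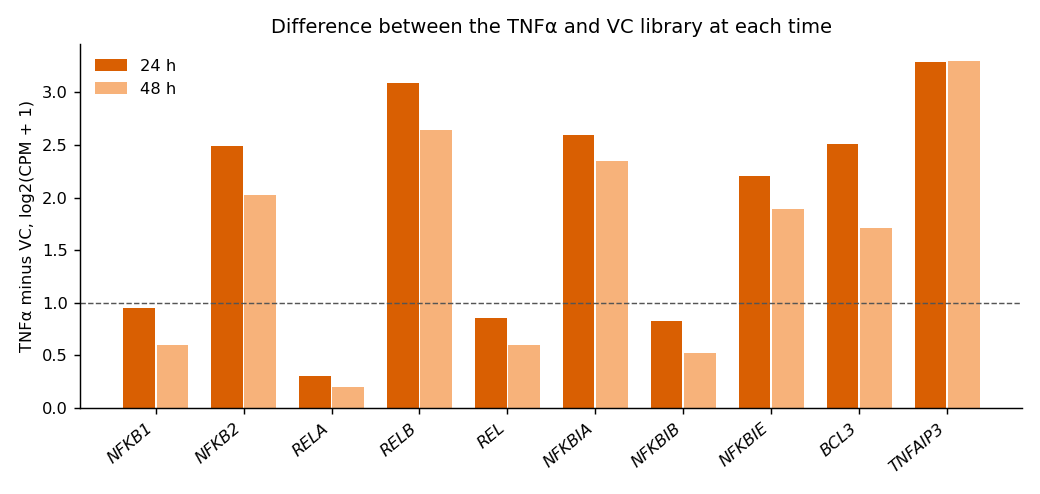
TNFα library minus VC library for each member at 24 h (dark bars) and 48 h (light bars), in log2(CPM + 1), with 1 library per condition and no error bar. The bars at 48 h are shorter for each member but TNFAIP3 (3.29 and 3.30), and the dashed line marks a difference of 1.

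Lists of the surrounding pathway describe RNA levels along the chain. Of 17 genes from the TNF receptors to the IκB kinases, 3 were called higher, 1 lower and 13 were not called, and the median log2 fold change was 0.05. Of all genes 8.42% were called higher and 19.3% in either direction. The calls of this list in either direction were near the share of all genes. The 3 of 17 called higher were above the share of all genes called higher, but rest on few genes. TRAF2, an adaptor of the TNF receptor complex, rose by 0.65 ± 0.08 (limma, adjusted p = 1.38e-05), TRAF5 by 0.42 ± 0.08 (adjusted p = 0.00141) and TAB3 by 0.25 ± 0.07 (adjusted p = 0.0176). The gene that fell was TAB2, named here after its value was seen (-0.20, limma, adjusted p = 0.0357). Of the genes not called, TNFRSF1B, the second TNF receptor, had 0.33 ± 0.12 (adjusted p = 0.055) and SHARPIN, a subunit of the linear ubiquitin ligase, -0.21 ± 0.07 (adjusted p = 0.0572). Of 5 genes of the non-canonical arm 3 were called higher, with a median of 0.96. BIRC3, which encodes the ubiquitin ligase cIAP2, rose by 3.54 ± 0.14, CD40, a receptor of the TNF family, by 1.71 ± 0.14 and TRAF3, which keeps the NFKB2 kinase unstable, by 0.96 ± 0.06 (limma, highest adjusted p = 5.79e-08).

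Of 14 other inhibitors of the pathway, 7 were called higher and 7 were not called, and the median was 0.27. ZC3H12A, an RNase that degrades cytokine transcripts, rose by 1.65 ± 0.11, NFKBID, a nuclear IκB protein, by 1.16 ± 0.14 and TNIP1, a partner of A20, by 1.14 ± 0.06 (limma, highest adjusted p = 8.35e-06). Of 18 target genes, 13 were tested. CXCL8, IL6, CSF2 and SELE were not in the TNFα table, and the identifier used for SOD2 was not in it either. All 13 tested genes were called higher, with a median of 2.41. ICAM1 (4.25 ± 0.15) and VCAM1 (4.14 ± 0.13), adhesion molecules for leukocytes, and the cytokine IL32 (4.24 ± 0.09) had the largest changes of this list (limma, highest adjusted p = 1.42e-12). TNFAIP3 with 3.29, RELB with 2.87 and NFKBIA with 2.47 lay above the median of the target genes.

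In untreated organoids 4 members rose from day 21 to day 29 in set 2 and the other 6 were not called. TNFAIP3, RELB, BCL3 and NFKBIA were called higher, against 10.0% of all 27650 genes called higher and 18.4% called in either direction (limma, 1 mean per day over 6 libraries). TNFAIP3 read 3.40 and 3.45 on day 21, 3.79 and 3.802 on day 25 and 4.19 and 4.23 on day 29. The days did not overlap, and day 29 exceeded day 21 by 0.79 ± 0.10 (limma, adjusted p = 0.00151). RELB read 3.44 and 3.71, then 3.91 and 4.10, then 4.30 and 4.41, a difference of 0.78 ± 0.13 (limma, adjusted p = 0.00493). Its libraries of day 21 were further apart than those of the later days, and the days did not overlap. BCL3 read 3.37 and 3.36, then 3.66 and 3.58, then 3.89 and 4.22. Its 2 libraries of day 29 differed by more than those of the other days, and the difference from day 21 was 0.69 ± 0.14 (limma, adjusted p = 0.0105). NFKBIA read 5.28 and 5.20, then 5.36 and 5.44, then 5.55 and 5.62, a smaller rise of 0.34 ± 0.08 (limma, adjusted p = 0.0164). NFKBIA was not called by limma when the first (adjusted p = 0.0642) or second library of day 21 (adjusted p = 0.125) or the second of day 29 (adjusted p = 0.0706) was left out, nor with values centred on the library median (adjusted p = 0.0514). BCL3 was not called without the first (adjusted p = 0.0672) or second library of day 21 (adjusted p = 0.0719). Both day 29 libraries were above both day 21 libraries for 7 of 10 members, the 4 called ones and NFKB1, NFKB2 and RELA, and for 27.1% of all genes.

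The 6 members that were not called between day 21 and day 29 had differences from -0.09 to 0.12, with the lowest adjusted p of 0.303 by limma in NFKB1. NFKB1 averaged 5.22 ± 0.04, 5.25 ± 0.04 and 5.34 ± 0.02 on the 3 days (SD, n = 2), and NFKB2 5.26 ± 0.06, 5.26 ± 0.08 and 5.37 ± 0.02. RELA was the steadiest, with 5.96 ± 0.01, 5.98 ± 0.01 and 5.997 ± 0.019. REL averaged 4.27 ± 0.17, 4.18 ± 0.03 and 4.27 ± 0.01, NFKBIB 3.41 ± 0.01, 3.43 ± 0.01 and 3.32 ± 0.02, and NFKBIE 3.90 ± 0.03, 3.87 ± 0.03 and 3.93 ± 0.07. None of these 6 reached the smallest called rise, 0.34 in NFKBIA. Per kilobase, RELA and NFKBIA were the highest members on day 21, at 24.4 ± 0.2 and 23.6 ± 1.0 CPM per kilobase (SD, n = 2), where they overlapped. On day 29 NFKBIA was at 30.2 ± 1.1 and RELA at 25.0 ± 0.3, and they no longer overlapped.

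No member was called from day 21 to day 25 or from day 25 to day 29 by limma (0 of 10 each), where 5.37% and 2.08% of all genes were called in either direction and 3.39% and 1.25% higher. Of all genes 24.4% had both day 25 libraries above both day 21 libraries, and 22.1% had both day 29 libraries above both day 25 libraries, as 6 of 10 members did in the first step (TNFAIP3, RELB, BCL3, NFKBIA, RELA and NFKBIB) and 7 of 10 in the second (TNFAIP3, RELB, BCL3, NFKBIA, NFKB1, NFKB2 and REL). At an unadjusted p under 0.05 by limma, 2 members (TNFAIP3 and RELB) passed in the first step and 4 (TNFAIP3, RELB, BCL3 and NFKBIA) in the second, all upwards. Of all 27650 genes, 5239 passed this rule in the first step and 4820 in the second, in either direction. In the first step the share of members that passed was close to that of all genes. The share of all genes that passed upwards was not counted. edgeR and DESeq2 called none in the first step, and in the second edgeR called 1, TNFAIP3 (adjusted p = 0.0492), and DESeq2 none. TNFAIP3 gained 0.37 ± 0.10 in the first step and 0.41 ± 0.10 in the second.

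**Figure D3:**
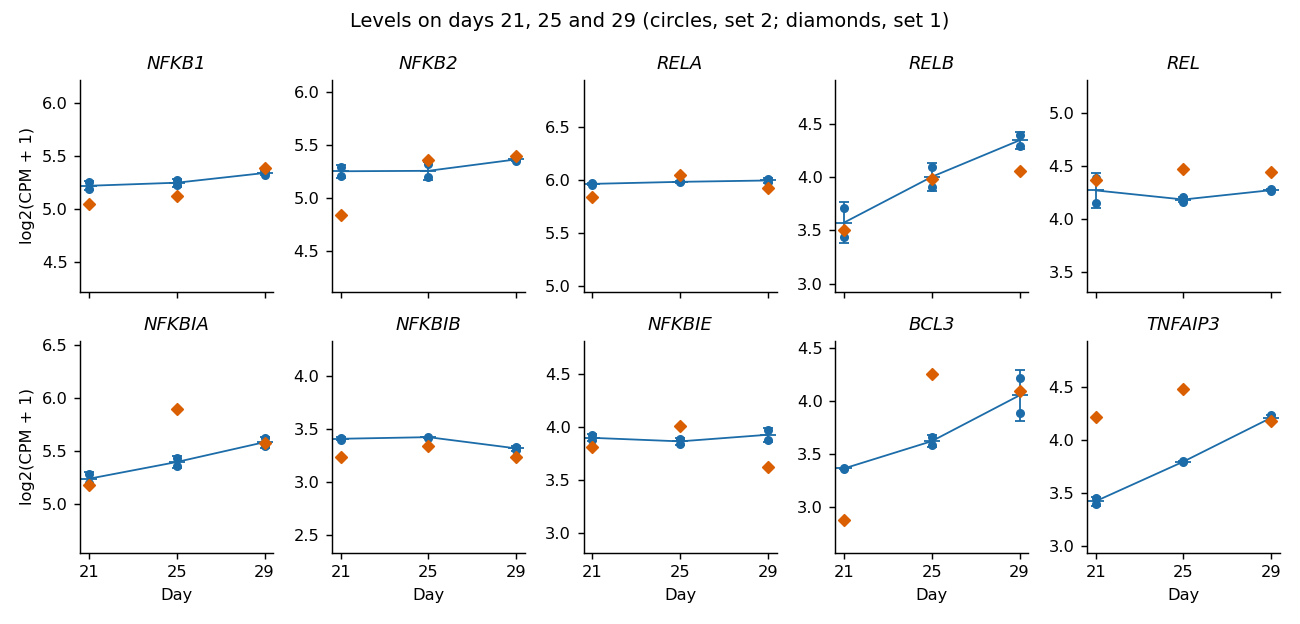
Level of each member on days 21, 25 and 29 as log2(CPM + 1) (blue circles, the 2 libraries of set 2 per day; line and bars, their mean and SD; orange diamonds, the 1 library of set 1 per day). Each panel spans 2 units, the tables were normalized separately, and the rise of TNFAIP3, RELB, BCL3 and NFKBIA in set 2 contrasts with the level lines of RELA and NFKBIB.

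Set 1 has 1 library per day and no test. Day 29 was above day 21 for 7 of 10 members, where 49.5% of all its genes were. BCL3 differed most, with 2.88 on day 21, 4.26 on day 25 and 4.10 on day 29. NFKBIA read 5.18, 5.90 and 5.58, NFKB2 4.84, 5.36 and 5.40 and RELB 3.51, 3.99 and 4.06. For BCL3 and NFKBIA the day 25 library was above the day 29 library, whereas in set 2 both day 29 libraries were above both day 25 libraries. TNFAIP3 read 4.21, 4.48 and 4.19, so its day 29 library was 0.03 below day 21 where set 2 rose by 0.79. NFKB1 read 5.05, 5.12 and 5.39, RELA 5.84, 6.05 and 5.92, REL 4.36, 4.47 and 4.44, NFKBIB 3.24, 3.35 and 3.24 and NFKBIE 3.82, 4.01 and 3.62.

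The summed markers of cell types shifted over the same days, and in bulk a change in cell numbers cannot be told apart from one in RNA per cell. In set 2 the stromal markers summed to 5311 and 4611 CPM on day 21 and to 15501 and 19279.5 CPM on day 29, and the podocyte markers to 13105.5 and 13702.5 CPM against 9396 and 4598 CPM. In set 1 the stromal markers went from 7890 to 20782 CPM and the podocyte markers from 8502 to 3581 CPM. The second day 29 library of set 2, the one with the lower podocyte marker sum, had the higher value of each member but NFKBIB. The gap was widest in BCL3 (4.22 against 3.89). The part of these shifts in the day differences of the members was not tested. From day 21 to day 29, 8 of 13 target genes were called higher and 5 were not called, with a median of 0.53. These 13 include CXCL8 in place of CCL20, which was not in the set 2 table. Of all genes 10.0% were called higher. In the receptor to kinase, non-canonical and other inhibitor lists, 1 of 17, 1 of 5 and 1 of 14 genes were called higher. These were TRAF5 (0.75), BIRC3 (0.96) and TRAF1 (0.38), named after their values were seen, and RNF31 was called lower (-0.30).

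In single cells of day 24, the level of a gene in a cell class is its sum of unique molecular identifiers (UMIs) there, expressed as CPM of the class total. After a filter at over 500 genes, 11906 of 12494 barcodes were left in the VC library and all 23160 in the TNFα library. The TNFα library was shallower, where the median cell had 2599 UMIs and that of the VC library 6358.5, and the libraries shared 74 barcodes. With 1 library per condition there is no test, and 95% intervals (exact Poisson for a level, exact given the summed counts for a ratio) cover counting error only. Clusters were named from markers that exclude the members, which left 7 named classes, called by the type whose markers they raised, and 6 of 16 clusters without a name.

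**Figure D4:**
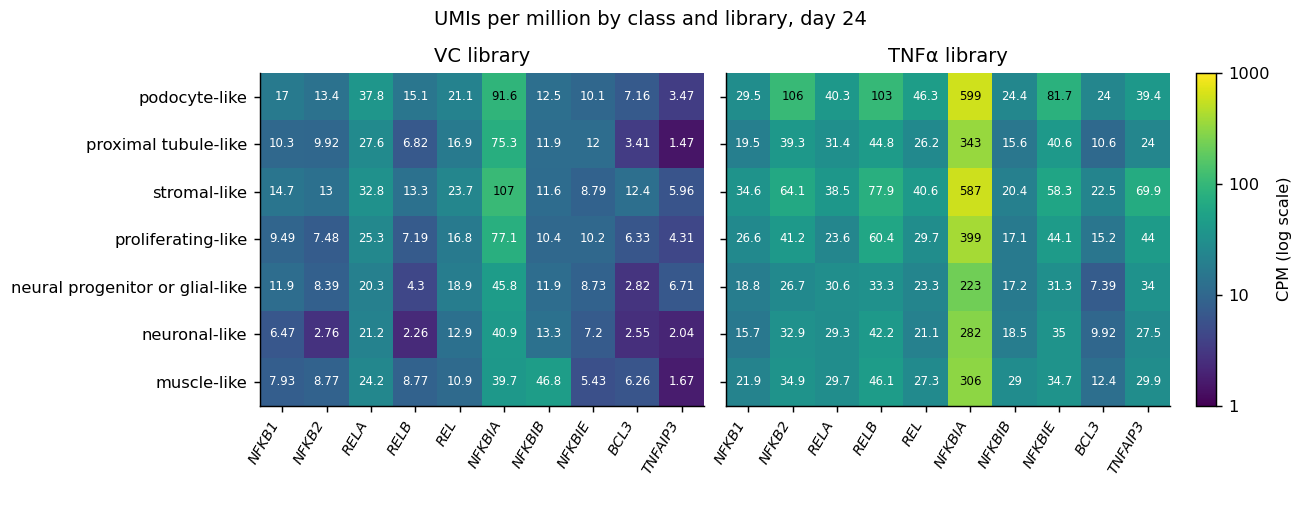
Level of each member (columns) in each named class (rows) of the VC library (left) and the TNFα library (right) of day 24, in CPM on a log colour scale with the value printed in each cell. NFKBIA is the highest member in all classes of the TNFα library, between 223 and 599 CPM, and in the VC library NFKBIB is higher in muscle-like cells (46.8 against 39.7 CPM).

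In the VC library UMIs of each member were counted in all 7 classes. Free RNA also gives UMIs in droplet data, and the 13 podocyte markers summed to 981 CPM in stromal-like and 1050 CPM in neuronal-like cells against 12896 CPM in podocyte-like cells, so whether the lowest member levels are expression was not tested. NFKBIA was highest in stromal-like cells, at 107 CPM, and in podocyte-like cells, at 91.6 CPM, and it was lowest in muscle-like cells at 39.7 CPM (95 UMIs). RELA ran from 20.3 CPM in neural progenitor or glial-like cells to 37.8 CPM in podocyte-like cells, less than 2-fold. RELB and NFKB2 were lowest in neuronal-like cells, at 2.26 and 2.76 CPM, and highest in podocyte-like cells, at 15.1 and 13.4 CPM. BCL3 was highest in stromal-like cells (12.4 CPM) and TNFAIP3 in neural progenitor or glial-like cells (6.71 CPM). TNFAIP3 was the scarcest member in the 6 classes other than neural progenitor or glial-like cells, and only 4 UMIs were counted in muscle-like, 28 in proximal tubule-like and 30 in podocyte-like cells. NFKBIB differed from the rest, with 46.8 CPM in muscle-like cells and 10.4 to 13.3 CPM in the other 6 classes.

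The TNFα library was higher for each member in each class, except RELA in proliferating-like (ratio 0.935) and NFKBIB in muscle-like cells (ratio 0.62). Of 70 member and class pairs, each with at least 50 UMIs over both libraries, 46 were at least 2-fold higher and 0 at least 2-fold lower. Of all 92890 gene and class pairs with as many UMIs 5.81% were at least 2-fold higher, and by class the share was 3.02% in proliferating-like, 3.05% in neural progenitor or glial-like, 3.62% in stromal-like, 4.46% in proximal tubule-like, 7.96% in neuronal-like, 9.55% in podocyte-like and 9.73% in muscle-like cells. NFKB2, RELB, NFKBIA, NFKBIE and TNFAIP3 passed 2-fold in all 7 classes, BCL3 in 5 and NFKB1 in 4. REL passed in 2 (podocyte-like and muscle-like), and RELA and NFKBIB in none of the 7 (0 pairs each).

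When the TNFα library was clustered alone, 13110 of its 23160 cells (56.6%) fell into its largest cluster, which raised none of the markers. Their median was 2140 UMIs against 4321 in the other cells. A further cluster of 969 cells, with a median of 4986 UMIs, also raised none. Only the 13110 cells of the largest cluster are called unmarked here, and the 969 were kept when those were left out. In the joint clustering these unmarked cells were spread over the classes and made up 75.4% of the proximal tubule-like, 64.4% of the podocyte-like, 48.1% of the stromal-like and 16.9% of the muscle-like cells of the TNFα library. With them, markers of other types were raised within classes: the 12 stromal markers summed to 1127 CPM in proximal tubule-like cells of the TNFα library against 382 CPM in the VC library. Without them the sum was 359 CPM. The main ratios are therefore also given without these cells, an alternative chosen after the data were seen, under which 46 of 70 pairs passed 2-fold and 3.13% of all 88691 pairs did.

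In podocyte-like cells (930 in the VC library, 3362 in the TNFα library) NFKBIA went from 91.6 CPM (95% interval 85.4 to 98.2) to 599 CPM (586 to 613), a ratio of 6.54 (6.08 to 7.05), and 7.72 without the unmarked cells. NFKB2 went from 13.4 to 106 CPM, a ratio of 7.91 (6.54 to 9.64), and RELB from 15.1 to 103 CPM, a ratio of 6.82 (5.69 to 8.22). Without the unmarked cells these ratios were higher, 9.86 and 8.43. NFKBIE had a ratio of 8.13 (6.53 to 10.2) and TNFAIP3 of 11.4 (7.86 to 17.0), the latter from 3.47 to 39.4 CPM. REL reached 2.19 (1.85 to 2.60), BCL3 3.35 (2.54 to 4.47) and NFKB1 1.73 (1.43 to 2.11). RELA stayed at 37.8 and 40.3 CPM, with an interval of the ratio that includes 1 (0.926 to 1.23), and NFKBIB had 1.96, which became 2.17 without the unmarked cells. Within the class the 13 podocyte markers summed to 12896 CPM in the VC library and 6161 CPM in the TNFα library, or 8042 CPM without the unmarked cells.

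In proximal tubule-like cells (1289 and 3520) NFKBIA went from 75.3 to 343 CPM, a ratio of 4.55 (4.29 to 4.83), and 4.38 without the unmarked cells. RELB had 6.57 (5.44 to 7.98), NFKB2 3.96 (3.36 to 4.69) and NFKBIE 3.39 (2.91 to 3.96), all still above 3 without the unmarked cells (5.79, 3.32 and 3.49). TNFAIP3 depended most on them. It rose from 1.47 CPM (28 UMIs) to 24.0 CPM, a ratio of 16.3 (11.1 to 24.9), but to 9.26 CPM and a ratio of 6.30 (4.06 to 10.0) without the unmarked cells. For the whole TNFα library the TNFAIP3 level was 39.2 CPM, above that in proximal tubule-like cells. Within this class the 14 proximal tubule markers summed to 1630 CPM in the VC library and 1121 CPM in the TNFα library. The 13 distal or early nephron markers summed to more, 2551 and 1820 CPM. The class may thus hold other tubule cells, and its make-up was not tested.

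In stromal-like cells (2609 and 4456) TNFAIP3 reached its highest level of any class, from 5.96 to 69.9 CPM, a ratio of 11.7 (9.39 to 14.8), and 12.8 without the unmarked cells. NFKBIA went from 107 to 587 CPM, a ratio of 5.50 (5.21 to 5.81), RELB from 13.3 to 77.9 CPM and NFKB2 from 13.0 to 64.1 CPM. NFKB1 passed 2-fold here, at 2.36 (2.01 to 2.78), and BCL3 did not, at 1.82 (1.51 to 2.19). Within the class the 12 stromal markers summed to 8105 CPM in the VC library and 5293 CPM in the TNFα library. Without the unmarked cells the TNFα sum was 5928 CPM. When the TNFα library was clustered alone, no cluster was named stromal, and a cluster of 2266 cells was named mural. In proliferating-like cells (762 and 1584) NFKBIA had a ratio of 5.18 (4.72 to 5.69), TNFAIP3 of 10.2 (6.99 to 15.4) and NFKB1 of 2.80 (2.1 to 3.77). RELB had 8.40 there against 5.84 in stromal-like cells and NFKBIE 4.32 against 6.64, and BCL3 passed 2-fold at 2.41. Their own stromal marker sum was 3190 CPM in the VC library, second to that of stromal-like cells.

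In the neuronal-like, neural progenitor or glial-like and muscle-like classes most ratios were also above 1, and the summed stromal markers were higher in all 3 in the TNFα library too. In neuronal-like cells (1738 and 2749) RELB went from 2.26 CPM (31 UMIs) to 42.2 CPM, a ratio of 18.7 (13.0 to 27.9), the largest of the 70 ratios, and 16.3 without the unmarked cells. NFKB2 had 11.9 (8.50 to 17.1), and NFKB1 had 2.43, which fell below 2-fold without the unmarked cells (1.69). In this class the stromal markers summed to 504 CPM in the VC library, 1710 CPM in the TNFα library and 1314 CPM without the unmarked cells. The 12 neuronal markers summed to 13721 CPM in the VC library, 6675 CPM in the TNFα library and 8408 CPM without the unmarked cells. The part of these shifts in these ratios was not tested. Neural progenitor or glial-like cells (1568 and 1530) had the lowest levels of NFKBIA in the TNFα library, 223 CPM, with a ratio of 4.88 (4.45 to 5.34) and 3.86 without the unmarked cells. In muscle-like cells (244 and 1819) NFKBIA had 7.70 (6.26 to 9.57), and TNFAIP3 rested on 4 UMIs in the VC library, so that its ratio of 17.9 has an interval from 6.86 to 66.4. NFKBIB went the other way there, from 46.8 to 29.0 CPM, a ratio of 0.62 (0.485 to 0.795). In this class the stromal markers summed to 597 CPM in the VC library, 1970 CPM in the TNFα library and 1868 CPM without the unmarked cells, and their part in this ratio was not tested. The muscle markers themselves summed to 19120 CPM in the VC library and 8921 CPM in the TNFα library, and 1 of the 2 muscle-like clusters contained 115 VC and 1409 TNFα cells, the other 129 and 410.

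**Figure D5:**
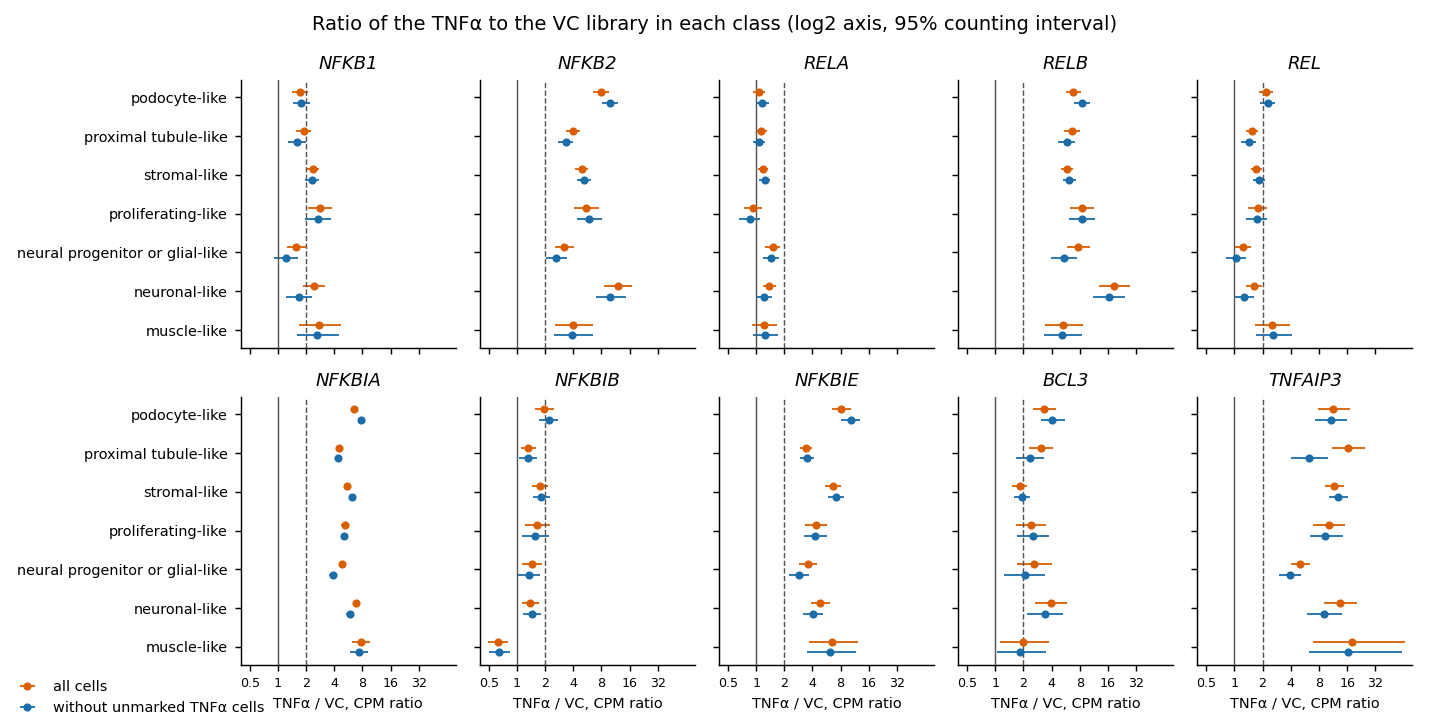
Ratio of the CPM in the TNFα library to that in the VC library for each member and class (log2 axis; bars, 95% counting interval; orange, all cells; blue, without the unmarked cells of the TNFα library; solid line, 1; dashed line, 2). The 5 members NFKB2, RELB, NFKBIA, NFKBIE and TNFAIP3 lie right of 2 in every class with either set of cells, and RELA lies between 0.935 and 1.503 with all cells.

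Bulk day 25 and single-cell day 24 organoids are separate libraries with separate controls, and their values at 24 h are set side by side here. The methods describe isolated spheroids for bulk RNA and whole wells for single cells. The days also differ, so the mix of cells may not be the same. Over all cells of a library NFKBIA was 5.67-fold higher (5.53 to 5.82) and in bulk 6.04-fold. For TNFAIP3 the values were 10.0-fold and 9.76-fold, for RELB 7.88-fold and 8.51-fold, for NFKB2 5.82-fold and 5.61-fold and for NFKBIE 5.19-fold and 4.62-fold. BCL3 was lower in single cells, with 2.98-fold against 5.68-fold in bulk. NFKB1 had 2.13-fold and 1.93-fold, REL 1.81-fold and 1.81-fold, NFKBIB 1.54-fold and 1.77-fold and RELA 1.21-fold and 1.23-fold. The bulk folds are on the log2(CPM + 1) scale, and the difference between the platforms was not tested.

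Over the 14 class and library points, the genes outside the members whose log2(CPM + 1) was most like that of NFKBIA were CCL2 (Pearson r = 0.970), CXCL10 (r = 0.968) and ICAM1 (r = 0.962), among 6885 genes with a mean of at least 20 CPM. For TNFAIP3 they were ICAM1 (r = 0.970), FDCSP (r = 0.968) and CCL2 (r = 0.964), and for NFKB2 TNIP1 (r = 0.962) and the mitochondrial genes MT-ATP6 (r = 0.958) and MT-ND6 (r = 0.951). The points are the 7 named classes in each of 2 libraries of unequal depth, so any difference between the libraries enters each r. The unmarked cells, which were found in the TNFα library only, had the mitochondrial genes MT-ND6, MT-ATP8 and MT-ND4L among their top genes. Their part in these values was not tested, and the values are a description of likeness over these points.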

How the data were processed

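Bulk RNA of 13 libraries and single-cell RNA of 2 libraries were re-analysed from deposited values. For bulk, the authors aligned to GRCh38 with STAR 2.7.8a, used HTSeq for gene counts and voom for normalization, removed some genes by a rule not stated, and deposited log2 values, which were read from the values themselves as log2(CPM + 1) with 0.5 added to each count. Whole reads came back for 100% of values (tolerance 0.01). No source used here says whether counting used strand, so reads shared with overlapping genes could not be separated. For single cells, the authors deposited UMI counts per gene and barcode, without normalization. Positions are from GENCODE 44 on GRCh38 and promoters from RefSeq (GRCh38.p14). The tables were normalized separately.

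The fits were made with limma 3.58.1 (eBayes with a trend on the mean) under R 4.3.3, with edgeR 4.0.16 and DESeq2 1.42.0 on the recovered reads as alternatives, and P-values were adjusted over all genes of a table. On simulated TNFα data over 21093 genes, with 200 genes changed by 1 on the log2 scale, limma recovered 197 and called 5 unchanged genes. For day 29 against day 21 over 27650 genes it recovered 181 and called 0. The simulated data had the same small spread for every gene and no time or treatment-by-time effect. Changed genes were taken from well-counted ones. The simulation therefore cannot show how the fits perform on the spread of these libraries. Cells were aligned over libraries with Harmony on 30 components of 3259 variable genes, without members, pathway genes or mitochondrial genes, and clustered with leidenalg at a resolution of 0.25. A cluster was named if at least 3 markers reached 20 CPM and a log2 fold of 1 over other cells (pseudocount 10 CPM), no other list had more markers among its top 10 genes, at least 1 marker was in its top 50 genes and, with none in the top 10, most of its list was raised. Clusters under 50 cells stayed unnamed, as did clusters of very low median UMI count for their library with no marker in the top 10. Scrublet's automatic threshold marked 0 cells. The highest scores were marked instead, at a share of 0.008 per 1000 cells, and marked cells were kept except in an alternative.

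Members, gene lists, tests and most alternatives were chosen with earlier results of these data known. All members are named. From each pathway list at most 3 called genes with the largest change are named, with at most 2 uncalled genes of the receptor to kinase list, and 3 genes by likeness of pattern for NFKBIA, NFKB2 and TNFAIP3.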

Additional observations from a re-analysis of the deposited data

Results flagged for a closer look

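Some members moved in opposite directions in set 2 and set 1, where both set 2 libraries of the later day lay on 1 side of those of the earlier day. From day 25 to day 29 TNFAIP3 rose by 0.41 in set 2 and was 0.29 lower in set 1, BCL3 was 0.43 higher and 0.16 lower, NFKBIA 0.19 higher and 0.33 lower, and REL differed by 0.0884 and -0.0293. From day 21 to day 29 TNFAIP3 was 0.79 higher in set 2 and 0.03 lower in set 1. The difference between the sets was not tested, since set 1 has 1 library per day. In set 2, 22.1% of all genes had both day 29 libraries above both day 25 libraries, and for day 29 over day 21 the share was 27.1%.

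NFKBIB in muscle-like cells was lower in the TNFα library, with a ratio of 0.620, where the ratios of the other 6 classes were 1.31 or more. The difference between classes was not tested, and the ratio was 0.649 without the unmarked cells. In this class the stromal markers summed to 597 CPM in the VC library and 1970 CPM in the TNFα library, or 1868 CPM without the unmarked cells, and the muscle markers to 19120 and 8921 CPM.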

How the results depend on the processing

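Of the 110 member results under the alternatives for TNFα against VC, 96 kept direction and call and 14 kept direction only. Of 130 for each day comparison, 118 (day 29 against day 21), 121 (day 25 against day 21) and 126 (day 29 against day 25) kept both. With a log2 fold change of at least 1 also asked for, 6 members were called for TNFα against VC. Leaving out 1 library at a time gave 7 to 9 calls for TNFα against VC (treatment as the only term), 2 to 4 for day 29 against day 21, 0 to 1 for day 29 against day 25 (BCL3 without the first day 29 library) and 0 for day 25 against day 21. By edgeR 1 member was called for day 29 against day 25. With the replicate block 1 member (RELB, adjusted p = 0.0379) was called for day 25 against day 21. The labels do not say whether the replicate numbers pair samples of different days. Deviations from the day means were weakly and positively correlated between days (r between 0.075 and 0.27 over 18572 genes). Whether the samples are paired therefore stays undecided. The block moved the count of all genes called from 574 to 1118 for day 29 against day 25. For day 25 and day 29 against day 21 the counts went from 1486 to 2091 and from 5081 to 6056.

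Centring on library medians moved the median of all genes for day 29 against day 21 from -0.02 to -0.12 and the calls from 2778 higher and 2303 lower to 2408 higher and 4667 lower, and for day 25 against day 21 from 937 and 549 to 971 and 1281. For uncalled members it reversed day 25 against day 21 in NFKB1 (-0.0456), NFKB2 (-0.0703), RELA (-0.0553) and NFKBIB (-0.0593), day 29 against day 25 in RELA (-0.0103), and day 29 against day 21 in RELA (-0.0656), REL (-0.0952) and NFKBIE (-0.0685). Leaving out 1 library, also uncalled, reversed NFKB1 (range -0.0022 to 0.0600), NFKB2 (-0.0557 to 0.0642, and -0.0398) and REL (-0.2044 to 0.0323) for day 25 against day 21, RELA (-0.0008 to 0.0264) for day 29 against day 25, and REL (-0.1160 to 0.1207, and -0.0053) and NFKBIE (-0.0172) for day 29 against day 21. The cause was not tested. DESeq2 called 2168 genes for TNFα against VC where limma called 4061, and for day 29 against day 25 limma called 574, edgeR 1336 and DESeq2 1278. Without the time term limma called 1310 genes for TNFα against VC. Of the single-cell pairs, 40 of 60 to 48 of 70 passed 2-fold. The 60 pairs are those of each library clustered alone, which left 6 classes to compare, without a stromal-like class. With 1 library per condition and time, depth does not replace replicates.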
